A study of Homo sapiens with 24 samples.

Results

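The annexins are a family of calcium-dependent proteins that bind phospholipids, and 9 of their human genes, ANXA1, ANXA2, ANXA3, ANXA4, ANXA5, ANXA6, ANXA7, ANXA9 and ANXA11, were followed here through NCI-H1299 cells that carried an isoform of p53. The members were chosen by gene symbol, as 9 of the 60563 named genes in the count table, and all 9 passed the filter on low counts that left 18295 genes for testing. The family was selected on results of the same libraries, because ANXA3 was already known to be higher in the clones than in control. The differences of ANXA3 from control are therefore given as a description without a test. The 4 protein-coding annexins outside the list, ANXA8, ANXA8L1, ANXA10 and ANXA13, had at most 7 reads in any library.

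Poly(A) RNA was sequenced in 24 libraries of NCI-H1299, a human non-small cell lung cancer line that the labels give as p53 deficient. Control cells held the empty plasmid (vector only, 4 libraries), and 5 stable lines, each grown from a single clone, overexpressed the Δ133p53α isoform (Δ133p53α1, Δ133p53α2 and Δ133p53α8, 4 libraries each) or the Δ133p53β isoform (Δ133p53β5 with 3 libraries and Δ133p53β10 with 4). Another Δ133p53β library has a title and a column name that give different clones, so it was fitted as a group of its own. All groups share the NCI-H1299 background, and a clone cannot be told apart from the isoform it expresses where only that clone differs. No source used here says that libraries of a line came from separate cultures, so p-values measure the spread between libraries, which may be technical. Tests between isoforms set 2 clones against 3, and their errors and p-values come from that spread, not from the spread between clones.

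Annexins share a folded core of repeats that binds calcium and attaches to negatively charged phospholipid, and a variable N-terminal tail that sets the partners of each member. They act at the cytoplasmic face of membranes, in endosome traffic, exocytosis, links between membrane and actin, and the resealing of torn plasma membrane. Some also reach the outside of the cell: ANXA1 is an inhibitor of inflammation that acts on formyl peptide receptors, ANXA2 with S100A10 gathers plasminogen and its activators at the cell surface, and ANXA5 is the protein used to stain exposed phosphatidylserine on dying cells.

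Between 21531599 and 25381731 reads were counted on genes per library. Levels are given as CPM, the reads of a gene scaled to a common library size with TMM factors, and 3 reads correspond to between 0.112 and 0.171 CPM. The libraries also fell into sets that the lines do not explain: the deviations of a library from the mean of all libraries had a positive rank correlation with transcript length in 12 libraries (0.232 to 0.376) and a negative one in the other 12 (-0.342 to -0.123). The positive set held 3 of the 4 control libraries, and its values are given beside the results they bear on. It held 3 libraries each of Δ133p53α2 and Δ133p53α8 and 1 each of Δ133p53α1, Δ133p53β5 and Δ133p53β10. The sets are thus unevenly spread over the clones and isoforms compared below. Of 6 markers fixed for a lung cancer line, EPCAM and CDH1 stayed under 1 CPM in every library, whereas the summed level of the list ran from 3904 to 6607 CPM in control and from 3884 to 11533 CPM with Δ133p53. KRT8, a keratin of simple epithelia, was higher than control in all 5 lines (log2 1.42 to 2.43, edgeR adjusted p from 0.000257 to 0.019), and its part in the differences of the annexins was not tested. KRT7, another keratin of the list, overlapped control, with medians of 1.43 CPM with Δ133p53 and 1.56 CPM in control. KRT8 does not stand for the list, whose summed level with Δ133p53 overlapped that of control. KRT18 and VIM, the rest of the list, are not given here by line. Immune markers summed to at most 0.683 CPM and endothelial markers to at most 0.727 CPM. In cells measured in bulk, more cells with a transcript and more transcript per cell cannot be told apart.

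The bases before the RefSeq start sites of ANXA3, ANXA1 and ANXA2 are shown because these members carried the differences described below and their windows are unlike in base composition. Each is written 5′ to 3′ on the strand of the gene (GRCh38.p14), with every CG dinucleotide in capitals. They lie at chr4:78551520-78551769 on the plus strand for ANXA3, chr9:73151615-73151864 on the plus strand for ANXA1 and chr15:60397987-60398236 on the minus strand for ANXA2. The GENCODE model of ANXA3 begins inside the last bases of its window, and longer GENCODE models of ANXA2 begin upstream of the window shown. The gene models run from 73151865 to 73170393 on chromosome 9 for ANXA1 (ENSG00000135046) and from 60347134 to 60402883 on chromosome 15 for ANXA2 (ENSG00000182718).
ANXA3: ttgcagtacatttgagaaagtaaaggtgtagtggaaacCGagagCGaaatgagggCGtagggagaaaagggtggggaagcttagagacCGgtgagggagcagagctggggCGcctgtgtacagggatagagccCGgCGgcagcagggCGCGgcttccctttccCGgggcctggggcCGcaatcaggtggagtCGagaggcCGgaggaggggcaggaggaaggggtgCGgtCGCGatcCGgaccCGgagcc
ANXA1: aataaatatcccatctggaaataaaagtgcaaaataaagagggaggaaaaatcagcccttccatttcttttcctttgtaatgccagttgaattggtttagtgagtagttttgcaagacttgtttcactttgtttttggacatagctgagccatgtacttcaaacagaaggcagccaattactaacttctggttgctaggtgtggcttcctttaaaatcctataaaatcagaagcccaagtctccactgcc
ANXA2: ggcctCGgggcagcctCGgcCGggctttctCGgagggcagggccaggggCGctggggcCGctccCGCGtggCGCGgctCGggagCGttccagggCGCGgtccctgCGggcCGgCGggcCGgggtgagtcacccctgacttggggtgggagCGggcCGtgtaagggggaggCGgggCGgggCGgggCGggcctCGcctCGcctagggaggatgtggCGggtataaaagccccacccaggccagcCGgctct

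The window of ANXA1 held 0 CG dinucleotides at 38.4% G and C, that of ANXA3 held 18 at 64.0% and that of ANXA2 held 28 at 78.0%. The median over the 35116 RefSeq windows of 250 bases was 11 CG dinucleotides at 58.0% G and C. The TATA box motif TATAAA, searched on both strands like all motifs, was found once before ANXA1 and once before ANXA2 and not in the window of ANXA3; 10.7% of all windows held it. The GC box GGGCGG occurred 3 times before ANXA2 and in neither of the other windows shown (42.6% of all windows), and the AP-1 motif TGACTCA once before ANXA2 (4.2%). A p53 half-site was matched once in the window of ANXA1 and in none of the other 12 windows of the 9 members (5.57% of all windows). These matches describe letters in a window and were not set against binding data.

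ANXA3, an annexin abundant in neutrophils, was barely transcribed in control and present in every Δ133p53 library. The control libraries held 9, 12, 11 and 10 reads, which corresponds to 0.345, 0.511, 0.412 and 0.422 CPM (0.422 ± 0.0679, SD, n = 4). ANXA3 stood at 9.45, 10.1, 11.2 and 5.59 CPM in Δ133p53α1, at 30.4, 27.8, 44.0 and 27.6 CPM in Δ133p53α2 and at 27.6, 23.6, 34.4 and 35.1 CPM in Δ133p53α8. All clone libraries lay above all control libraries, with at least 103 reads against at most 12. In the Δ133p53β lines the level was 16.2, 20.9 and 21.9 CPM in Δ133p53β5 and 18.9, 14.9, 12.8 and 10.8 CPM in Δ133p53β10, and the library of unsettled clone had 13.9 CPM. Both Δ133p53β lines therefore sat between Δ133p53α1 and the other Δ133p53α lines.

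The log2 difference of ANXA3 from control was 4.41 in Δ133p53α1, and reached 6.25 and 6.14 in the α2 and α8 clones. The Δ133p53β lines lay between them at 5.53 (clone β5) and 5.07 (clone β10), and standard errors ran from 0.28 to 0.30. These correspond to 21.3- to 76.1-fold. All 5 comparisons share the 4 control libraries, so they are not independent of each other.

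**Figure D1:**
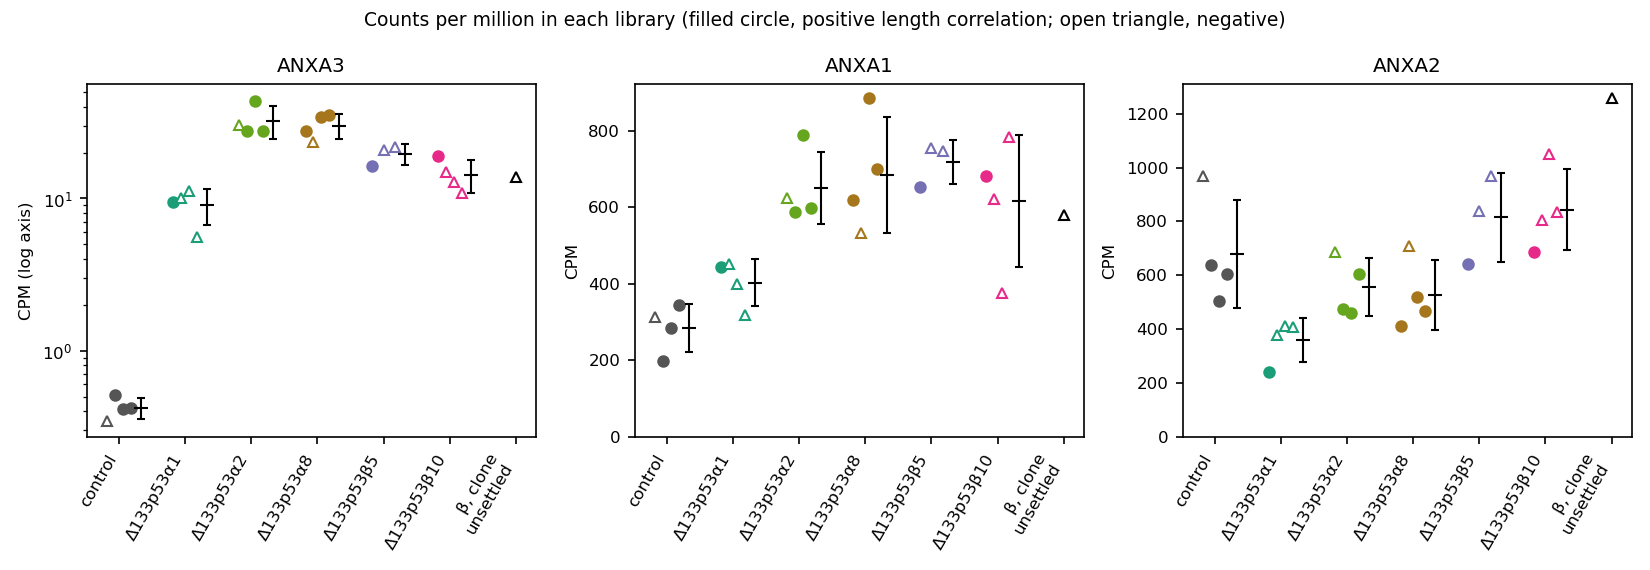
CPM of ANXA3 (log axis), ANXA1 and ANXA2 (linear axes from 0) in each of the 24 libraries by line, with filled circles for libraries whose deviations correlate positively with transcript length, open triangles for the others, and the mean ± SD beside each line with replicates. ANXA3 lay between 0.345 and 0.511 CPM in control and at 5.59 CPM or higher in every other library.

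Among the clones, where the choice of ANXA3 played no part, its level differed between clones of Δ133p53α, and the test between isoforms did not pass. ANXA3 was 1.84 log2 units higher in Δ133p53α2 than in Δ133p53α1 (SE 0.24, edgeR adjusted p = 0.000186) and 1.73 higher in Δ133p53α8 than in Δ133p53α1 (SE 0.24, edgeR adjusted p = 0.00036), with all 4 libraries above all 4 of Δ133p53α1 each time. It was the 1 member called in each of these comparisons (adjusted p under 0.05 and a log2 difference of at least 1.5), beside 0.563% and 0.514% of all tested genes, and the 1 member past the adjusted p alone, beside 0.820% and 0.743%. Δ133p53α8 and Δ133p53α2 differed by -0.11 (95% interval -0.59 to 0.37), where edgeR called 0 members and 0.153% of genes, and ANXA4 alone among the members had an unadjusted p under 0.05 (-0.53, adjusted p = 0.998). Within the positive set, which held 1 library of Δ133p53α1, the differences were 1.84 (adjusted p = 0.069) and 1.79 (adjusted p = 0.0786). With only these lines in the fit, Δ133p53α2 minus Δ133p53α1 was 1.83 (adjusted p = 0.0567).

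Between isoforms, the mean of the Δ133p53β lines minus the mean of the Δ133p53α lines was -0.30 for ANXA3 (SE 0.16, 95% interval -0.63 to 0.03, edgeR adjusted p = 0.355). Between the Δ133p53β clones, Δ133p53β10 minus Δ133p53β5 was -0.45 (95% interval -0.97 to 0.06, edgeR adjusted p = 0.953). The order of the means was control, Δ133p53α1 (9.07 ± 2.42 CPM), Δ133p53β10 (14.4 ± 3.47), Δ133p53β5 (19.7 ± 3.03), Δ133p53α8 (30.2 ± 5.54) and Δ133p53α2 (32.5 ± 7.80). The highest library of Δ133p53α1 (11.2 CPM) passed the lowest of Δ133p53β10 (10.8 CPM), and the ranges of Δ133p53β5 and Δ133p53α8 did not meet.

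Along chromosome 4 (GRCh38), ANXA3 (ENSG00000138772, 78551747 to 78610451, plus strand) is followed 28.33 kb beyond its end by LINC01094 (ENSG00000251442, 78638780 to 78683185, plus strand), a long non-coding RNA. LINC01094 had 4, 4, 1 and 1 reads in control and 4 to 41 reads in the Δ133p53 libraries. With at most 4 reads in control, it passed the filter on low counts only through the clone libraries, where it is higher. Its differences from control are therefore given as a description without a test, as for ANXA3. They were 2.39 log2 units in Δ133p53α1 and 2.92 and 2.41 in the α2 and α8 clones. The Δ133p53β clones β5 and β10 were at 2.85 and 3.03. At such counts single libraries moved the values. Without control replicate 3 or 4 the difference was 2.11 or 2.15 in Δ133p53α1 and 2.13 or 2.18 in Δ133p53α8.

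The 5 tested genes on each side of ANXA3 cover 2968 kb. Of the other 9 neighbours, MRPL1, a protein of the mitochondrial ribosome, had log2 differences from 0.55 to 0.87 and passed the test in 1 line (0.87 in Δ133p53β10, edgeR adjusted p = 0.0318). It lost that call with no filter (0.0551), with the replicate block (0.0618), with only both groups fitted (0.165), within the positive set (0.193) and without Δ133p53β10 replicate 2, 3 or 4 or without control replicate 2 or 3 (adjusted p from 0.068 to 0.118). MRPL1 passed in Δ133p53β5 with DESeq2 (adjusted p = 0.0383), with limma-voom (0.0446) and without control replicate 1 (0.012) or Δ133p53α1 replicate 1 (0.0486). With the set as a term it passed in Δ133p53α2 (0.04), Δ133p53α8 (0.039) and Δ133p53β5 (0.0322). It also passed in Δ133p53α8 within the positive set (0.0275) and in Δ133p53α1 without its replicate 1 (0.0436). FRAS1, whose end lies 7.478 kb before ANXA3, ran from -1.16 to 1.68 across the lines and passed in none. CCNG2, a cyclin, was -1.52 in Δ133p53α1 and passed in none of the 5 lines.

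**Figure D2:**
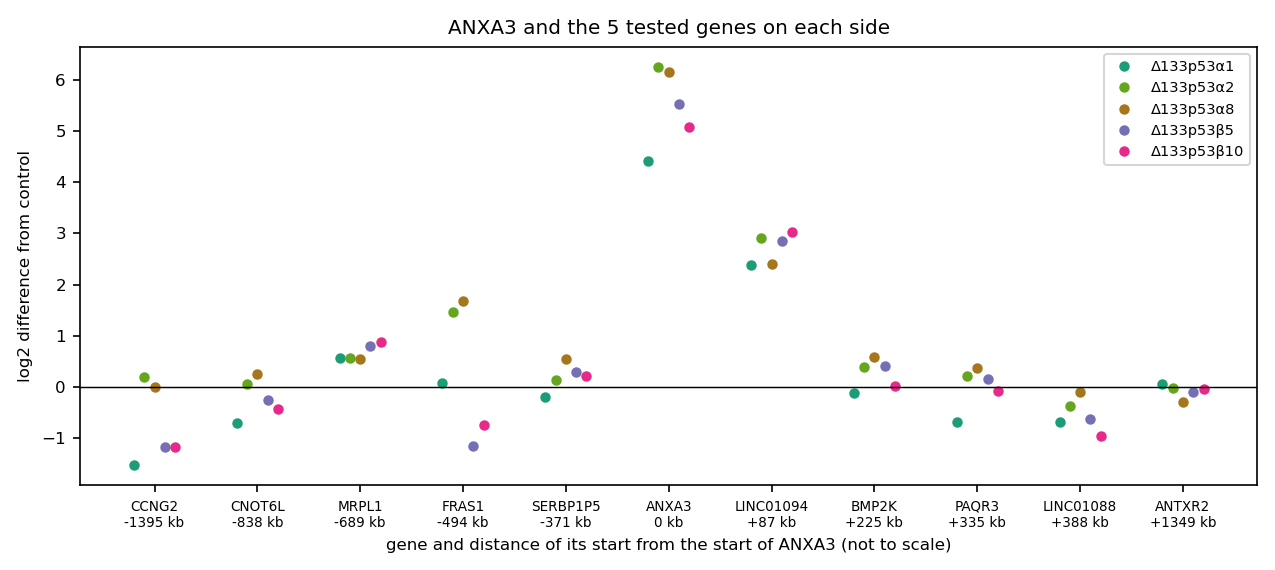
Log2 difference from control in each of the 5 lines for ANXA3 and the 5 tested genes on each side, in chromosomal order, with the distance of each start from that of ANXA3 in kb. LINC01094 ran from 2.39 to 3.03 and ANXA3 from 4.41 to 6.25, whereas the other 9 genes lay between -1.52 and 1.68.

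By Pearson's r of log2 CPM over the 24 libraries, the tested genes most like ANXA3 were ERC2 (0.986), ZNF22 (0.978), CRACR2A (0.96), CTPS2 (0.948) and SPECC1 (0.94), none of them on chromosome 4. The libraries share lines and controls, so these values describe a common pattern over the same cells. ERC2 had 10 to 14 reads in control and CRACR2A and CTPS2 at most 2, and all 5 genes, chosen for this likeness, had higher means in each line than in control.

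ANXA1, which glucocorticoids induce and which limits inflammation, was higher than control in 4 of the 5 lines. Control held 313, 199, 285 and 344 CPM. Δ133p53α2 held 625, 589, 789 and 598 CPM, and Δ133p53α8 held 619, 533, 886 and 700 CPM. In Δ133p53β5 the values were 653, 755 and 746 CPM, and in Δ133p53β10 they were 682, 623, 377 and 783 CPM. Every library of these 4 lines lay above the highest control library. Δ133p53α1, with 444, 452, 399 and 318 CPM, overlapped control, and the library of unsettled clone held 579 CPM.

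On the log2 scale ANXA1 rose by 1.19 in Δ133p53α2 (SE 0.22, edgeR adjusted p = 0.00183), 1.26 in Δ133p53α8 (SE 0.22, edgeR adjusted p = 0.00123), 1.33 in Δ133p53β5 (SE 0.24, edgeR adjusted p = 0.00114) and 1.11 in Δ133p53β10 (SE 0.22, edgeR adjusted p = 0.00254). In Δ133p53α1 the difference was 0.50 (SE 0.22, edgeR adjusted p = 0.168). The steps from Δ133p53α1 to Δ133p53α2 (0.69, edgeR adjusted p = 0.157) and to Δ133p53α8 (0.76, edgeR adjusted p = 0.108) did not pass, although the latter did without Δ133p53α1 replicate 1 (0.81, adjusted p = 0.0387) and with DESeq2 (0.76, adjusted p = 0.0293). Within the positive set, with 1 library of each Δ133p53β line, the differences were 1.25 in Δ133p53β5 (adjusted p = 0.0659) and 1.29 in Δ133p53β10 (adjusted p = 0.0524). With only control and Δ133p53β10 fitted, the latter was 1.10 (adjusted p = 0.074).

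ANXA1 and ANXA3 also tracked each other over the 24 libraries (Pearson's r 0.839), the highest value among the 36 pairs of members, followed by ANXA6 with ANXA11 (0.801). The lowest was ANXA7 with ANXA11 (-0.585). These correlations describe libraries that share lines and library sets. Those of ANXA3 include the step from control to clones on which it was chosen, so nothing is read from its rank.

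ANXA2, the partner of S100A10 at the plasma membrane, was higher in the Δ133p53β than in the Δ133p53α lines. Control held 969, 638, 506 and 606 CPM. The Δ133p53α libraries ran from 242 to 710 CPM (median 464, n = 12), and the 7 Δ133p53β libraries of known clone held 641, 838 and 970 CPM in Δ133p53β5 and 686, 805, 1050 and 835 CPM in Δ133p53β10. The library of unsettled clone held 1258 CPM, the highest of all 24. The ranges of the isoforms overlapped between 641 and 710 CPM.

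The mean of the Δ133p53β lines was 0.81 log2 units above that of the Δ133p53α lines (SE 0.16, 95% interval 0.48 to 1.14, edgeR adjusted p = 0.00298), with 830 against 481 CPM. These errors do not measure the spread between clones of an isoform. ANXA2 was the 1 member past the adjusted p in that comparison, where 4.72% of tested genes were, and no member was called, beside 1.40% of genes. Neither Δ133p53β line passed the test against control (0.26 and 0.31, adjusted p = 0.601 and 0.39, edgeR), and the difference came with lower values in the Δ133p53α lines (-0.92, -0.29 and -0.37). The decrease in Δ133p53α1 (242, 377, 412 and 409 CPM, SE 0.24) passed the test alone among the 5 lines (edgeR adjusted p = 0.0284).

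ANXA2 was also 0.56 log2 units lower in the positive library set than in the negative one (SE 0.094), with medians of 513 and 820 CPM. With the set as a term of the fit, Δ133p53β minus Δ133p53α was 0.66 (edgeR adjusted p = 7.64e-05) and Δ133p53α1 minus control -1.19 (edgeR adjusted p = 1.25e-05). Among the Δ133p53α lines, ANXA2 in Δ133p53α2 and Δ133p53α8 was 0.63 and 0.55 above Δ133p53α1 (edgeR adjusted p = 0.23 and 0.174), and 0.93 and 0.83 with the set as a term (edgeR adjusted p = 0.000953 and 0.00335). Within the positive set alone, the isoform difference and that of Δ133p53α1 from control were 0.77 (adjusted p = 0.0752) and -1.27 (adjusted p = 0.052). The decrease in Δ133p53α1 lost its call without control replicate 1 (-0.70, adjusted p = 0.0807) or Δ133p53α1 replicate 2 (-0.98, adjusted p = 0.0506), with no filter (-0.91, adjusted p = 0.0597), with the replicate block (-0.93, adjusted p = 0.0562) and with only both groups in the fit (-0.93, adjusted p = 0.092).

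The processed pseudogenes of ANXA2 can take reads from it, and how reads that fit several places were counted is not given in the sources used here. ANXA2P2 (12.0 ± 4.62 CPM in control) was lower in Δ133p53α1 (log2 -0.99, edgeR adjusted p = 0.0102) and higher in Δ133p53β than in Δ133p53α lines (0.78, edgeR adjusted p = 0.00211), as ANXA2 was. The first call was lost with only both groups fitted (adjusted p = 0.092) and within the positive set (0.274), and the second within the positive set (0.162). ANXA2P1 (1.57 ± 0.836 CPM in control) was higher in Δ133p53β as well (1.04, edgeR adjusted p = 0.0346), a call lost without any 1 of Δ133p53α1 replicates 1 and 4, Δ133p53α2 replicates 3 and 4, Δ133p53α8 replicates 1, 3 and 4, Δ133p53β5 replicates 1, 2 and 3 or Δ133p53β10 replicates 2 and 4 (adjusted p from 0.0557 to 0.125), with no filter (0.0527), with the replicate block (0.062) and within the positive set (0.385). ANXA2P3 had at most 3 reads in any library. Summing the reads of ANXA2 and its pseudogenes changed no call for ANXA2.

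The balance between ANXA1 and ANXA2, the pair of highest level in control, had means that differed between the lines, given here without a test. There were 0.323, 0.313, 0.564 and 0.568 reads of ANXA1 per read of ANXA2 in control (0.442 ± 0.143, SD, n = 4). The ratio averaged 1.19 ± 0.458 in Δ133p53α1, 1.21 ± 0.366 in Δ133p53α2, 1.36 ± 0.421 in Δ133p53α8 (SD, n = 4 each), 0.897 ± 0.125 in Δ133p53β5 (n = 3) and 0.766 ± 0.287 in Δ133p53β10 (n = 4). All Δ133p53α libraries lay at 0.750 or above. In Δ133p53α1 the ratio was 1.83 in the positive set and 0.776 to 1.20 in the negative set. In Δ133p53α8 it was 1.49 to 1.71 and 0.750, and in Δ133p53α2 0.985 to 1.72 and 0.912. The positive libraries of Δ133p53β5 and Δ133p53β10 held 1.02 and 0.994, and their negative ones at most 0.902 and 0.938. In control the negative library (0.323) lay within the range of the positive ones. Of the Δ133p53β libraries, 1 of Δ133p53β10 (0.360) and that of unsettled clone (0.461) lay within the range of control. The summed level of the 9 annexins was 1584 ± 300 CPM in control and ran from 1583 ± 207 CPM in Δ133p53α1 to 2123 ± 261 CPM in Δ133p53β5 (SD). In control the sum was 2032 CPM in the negative library and 1396 to 1467 CPM in the positive ones. The part of the set in these ratios and sums was not tested.

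**Figure D3:**
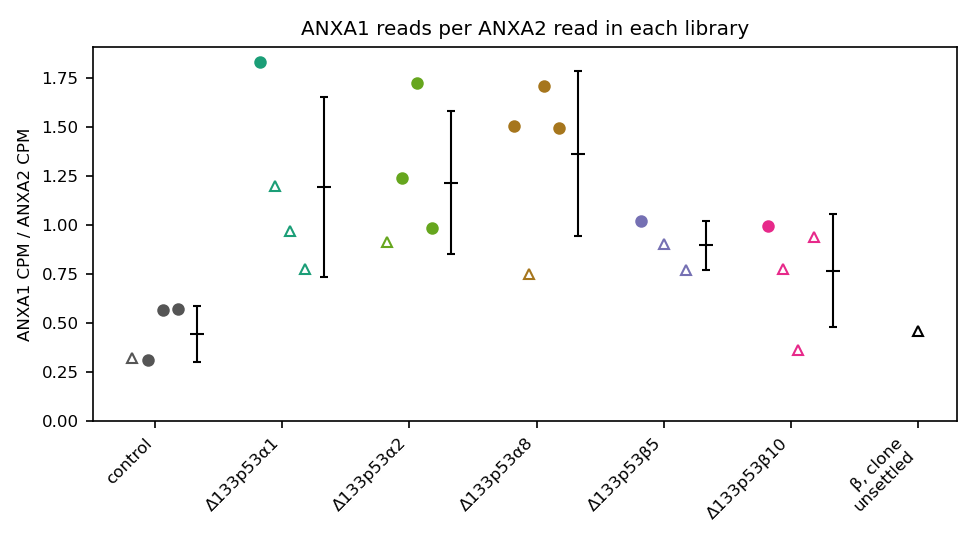
ANXA1 CPM divided by ANXA2 CPM in each library (linear axis from 0) by line, with filled circles for libraries of positive length correlation, open triangles for the others, and mean ± SD beside each line with replicates. Control lay between 0.313 and 0.568, and every Δ133p53α library at 0.750 or above.

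ANXA7, also called synexin and known for promoting the fusion of secretory vesicles, was lower than control in the mean of every line. Control held 73.1, 85.6, 77.4 and 80.3 CPM, and Δ133p53β10 held 63.2, 53.6, 42.7 and 56.8 CPM, without overlap. The difference of -0.55 in Δ133p53β10 (SE 0.15, edgeR adjusted p = 0.0248) passed the test. In the other lines it ran from -0.35 to -0.19 and did not pass. The call was lost without control replicate 2 (adjusted p = 0.0678) or 4 (0.0532), without Δ133p53β10 replicate 2 (0.0632) or 3 (0.087), with no filter (0.129), with the replicate block (0.0504), with only both groups fitted (0.194) and within the positive set (-0.36, adjusted p = 0.354).

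ANXA6, the member with a doubled set of core repeats, had the widest errors of the family (SE 0.37 to 0.40 against control). Control held 220, 131, 136 and 116 CPM. Δ133p53α1 held 139, 218, 245 and 383 CPM, Δ133p53β5 held 65.6, 92.2 and 84.0 CPM, and Δ133p53β10 held 75.4, 111, 154 and 93.5 CPM. All 3 libraries of Δ133p53β5 lay below all 4 of control, whereas the difference of -0.91 did not pass the test (SE 0.40, edgeR adjusted p = 0.195). With only both groups fitted it did (-0.92, adjusted p = 0.0456). Δ133p53β minus Δ133p53α was -0.85 (SE 0.26, edgeR adjusted p = 0.0613).

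ANXA6 was 0.85 log2 units lower in the positive library set than in the negative one (SE 0.15). With the set as a term, it was lower in Δ133p53β5 (-1.22, edgeR adjusted p = 0.00185) and Δ133p53β10 (-0.89, edgeR adjusted p = 0.0132) than in control, and lower in Δ133p53β than in Δ133p53α lines (-1.04, edgeR adjusted p = 0.000141). DESeq2 gave -0.84 for the isoforms (adjusted p = 0.0168). The isoform difference also passed without Δ133p53α1 replicate 1 (-0.91, adjusted p = 0.037), Δ133p53α2 replicate 2 (-0.90, adjusted p = 0.048), Δ133p53α8 replicate 1 (-0.91, adjusted p = 0.0465) or Δ133p53β10 replicate 3 (-0.96, adjusted p = 0.036). Δ133p53α8 minus Δ133p53α1 was -1.11 (edgeR adjusted p = 0.137) and passed without Δ133p53α8 replicate 2 (-1.58, adjusted p = 0.0303) or Δ133p53α1 replicate 1 (-1.31, adjusted p = 0.0378).

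ANXA11, which ties RNA granules to lysosomes, moved with ANXA6 between the library sets (-0.67 in the positive set, SE 0.13). Its median was 155 CPM in the positive and 243 CPM in the negative set. In size, the set differences of ANXA2, ANXA6 and ANXA11 exceeded those of 47.3%, 68.2% and 55.4% of all tested genes. Against control ANXA11 ran from -0.00054 in Δ133p53α8 to 0.78 in Δ133p53α1 (SE 0.30, edgeR adjusted p = 0.121) and passed in no line. Without Δ133p53α1 replicate 1, the only library of that line in the positive set, the difference in Δ133p53α1 was 0.94 (adjusted p = 0.0358), and Δ133p53α8 minus Δ133p53α1 was -0.95 (adjusted p = 0.0407, against -0.78 and 0.16 with all libraries).

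ANXA4, ANXA5 and ANXA9 passed the test in no line and in no comparison between lines. ANXA5 had 133.7 to 198 CPM in control and 132 to 255 CPM with Δ133p53, and its log2 differences ran from 0.04 to 0.39 (lowest edgeR adjusted p = 0.313). ANXA4, abundant in secretory epithelia, had 44.3 to 87.3 CPM in control and 25.0 to 77.5 CPM with Δ133p53, with differences from -0.45 to 0.08 (lowest edgeR adjusted p = 0.273). ANXA9, an annexin without working calcium sites in its core, had 49 to 91 reads per library in control and 39 to 75 with Δ133p53, with differences from -0.39 to -0.08 (lowest edgeR adjusted p = 0.424). The widest of the 95% intervals of ANXA9 against control reached from -0.95 to 0.17.

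**Figure D4:**
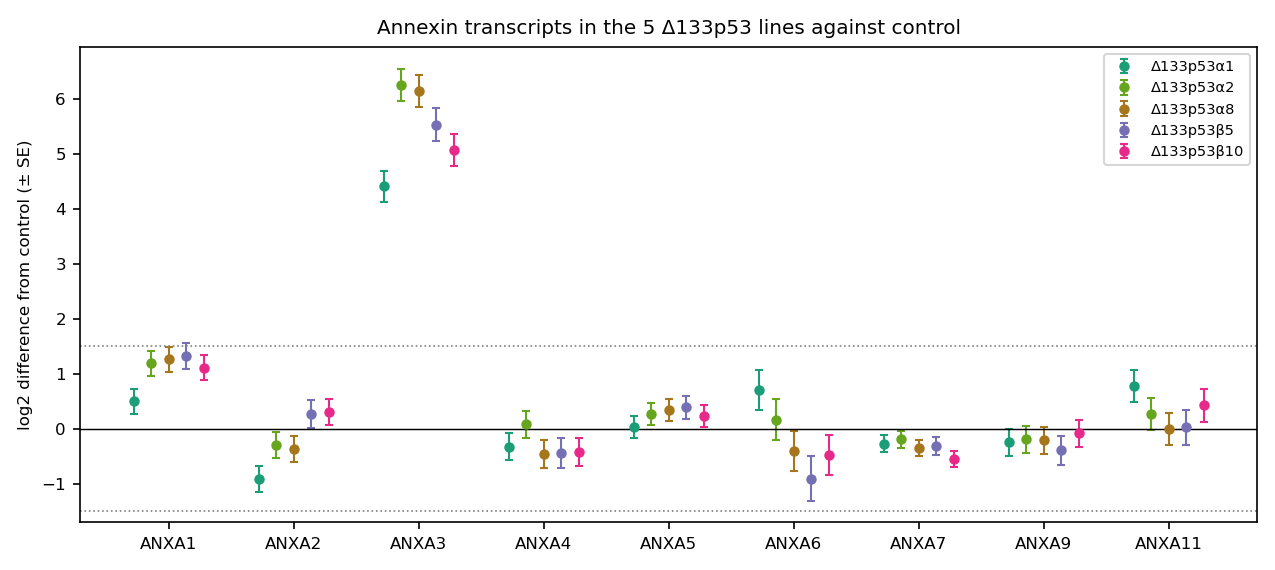
Log2 difference from control (± SE) of each annexin in the 5 Δ133p53 lines, with dotted lines at 1.5 and -1.5. ANXA3 lay between 4.41 and 6.25 and ANXA1 between 0.50 and 1.33, whereas the other 7 members lay between -0.92 and 0.78.

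By the rule with both thresholds, 1 of the 9 members, ANXA3, was called in each line against control, beside 2.59% of all tested genes in Δ133p53α1, 2.80% and 2.50% in the α2 and α8 clones, and 4.20% and 4.70% in the β5 and β10 clones. As ANXA3 was chosen on these contrasts, nothing is read from that count. Past the adjusted p alone there were 2 members in Δ133p53α1 (4.87% of genes), 2 each in the α2 and α8 clones (5.31% and 4.48%), 2 in Δ133p53β5 (7.98%) and 3 in Δ133p53β10 (9.82%). Apart from ANXA3 these were ANXA2 in Δ133p53α1, ANXA1 in each of the other 4 lines and ANXA7 in Δ133p53β10. The median log2 difference of the members was 0.04, 0.17, -0.21, 0.03 and 0.23 in the 5 lines in that order, against medians over all genes from -0.05 to 0.03. Between Δ133p53β10 and Δ133p53β5, edgeR called 0 members and 0% of genes (376 genes at an unadjusted p under 0.05), and DESeq2 and limma-voom called 0 genes as well.

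Per kb of the canonical transcript, ANXA2 was the most abundant annexin in control (437 ± 129 CPM per kb), followed by ANXA1 (204 ± 44.4), ANXA5 (98.0 ± 17.6), ANXA6 (52.3 ± 16.3), ANXA7 (32.4 ± 2.15), ANXA11 (24.6 ± 3.92), ANXA4 (22.4 ± 7.48), ANXA9 (1.81 ± 0.447) and ANXA3 (0.295 ± 0.0474; SD, n = 4). ANXA11 and ANXA4 differed by less than their spread. In the clones ANXA3 left the last place. It reached 6.33 ± 1.69 CPM per kb in Δ133p53α1 and 22.7 ± 5.45 in Δ133p53α2, where ANXA4 stood at 23.7 ± 5.20. In the 3 Δ133p53α lines ANXA1 exceeded ANXA2 in the mean per kb (288 ± 43.9 against 232 ± 51.6, 464 ± 67.1 against 358 ± 70.1, and 488 ± 108 against 339 ± 83.4 in α1, α2 and α8). Their means in Δ133p53β5 (513 ± 40.4 and 525 ± 106) and Δ133p53β10 (440 ± 123 and 543 ± 97.5) kept the order of control, within the spread of the libraries. Every Δ133p53 library of the positive set had ANXA1 above ANXA2, also in replicate 1 of Δ133p53β5 (466 against 413) and of Δ133p53β10 (487 against 441). The negative set ran both ways, with 380 against 457 in Δ133p53α8 replicate 2 and 559 against 537 in Δ133p53β10 replicate 4. The part of the set in this order was not tested.

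**Figure D5:**
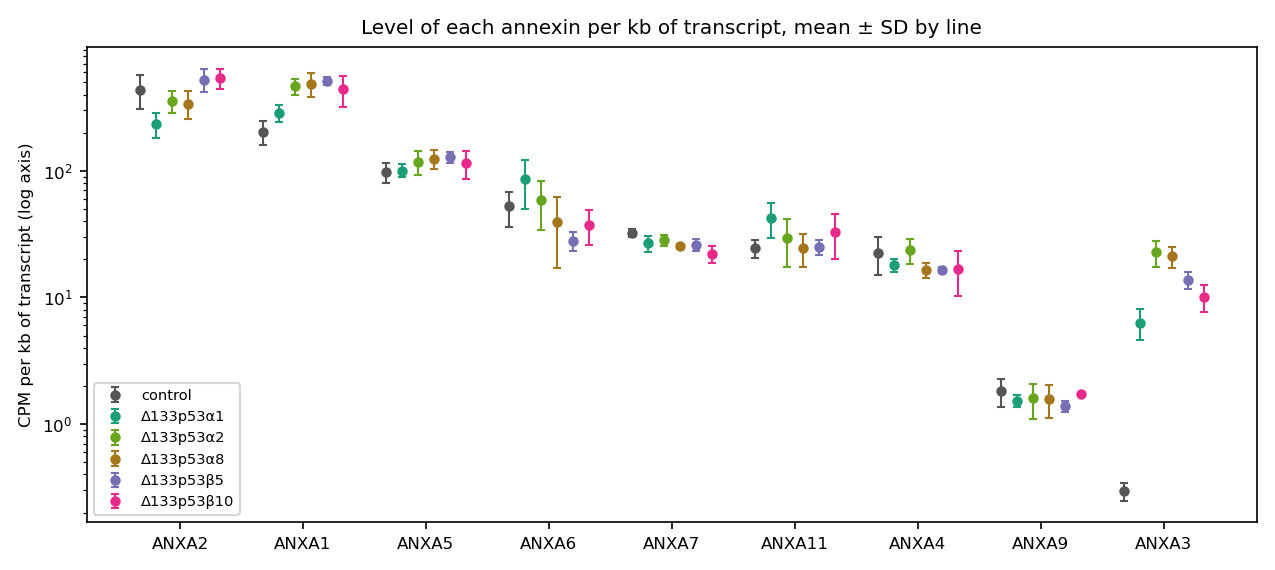
Mean ± SD of CPM per kb of canonical transcript for the 9 annexins by line (log axis), ordered by the level in control. ANXA3 stood at 0.295 in control and between 6.33 and 22.7 in the clones, while ANXA9 stayed between 1.38 and 1.81.

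Of 10 relatives of the family outside the list of members, 5 were tested. ANXA2R, the gene named for an ANXA2 receptor, had 3.12 ± 0.784 CPM in control, and it and the transcripts ANXA2R-AS1 and ANXA2R-OT1, which overlap it, passed in no comparison. ANXA10 and ANXA13 had 0 reads in all libraries, and ANXA8 and ANXA8L1, near-identical copies between which reads may be split, had 33 and 5 reads in all 24.

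Of 14 partners and receptors of annexins, 9 were tested, and 1 passed, in Δ133p53α2 against control (5.31% of all tested genes passed) and against Δ133p53α1 (0.820%). This was DYSF, dysferlin, a calcium sensor of membrane repair that binds ANXA1 and ANXA2. It had 11.2, 4.60, 13.2 and 5.29 CPM in Δ133p53α2, all above the 0.153, 0.511, 2.21 and 0.634 CPM of control (log2 3.27, SE 0.57, edgeR adjusted p = 0.000845) and the 0.661 to 0.908 CPM of Δ133p53α1 (3.45, edgeR adjusted p = 0.00316; 0.404 within the positive set). In Δ133p53α8 DYSF was 1.65 above control (edgeR adjusted p = 0.0995), which passed without control replicate 3 (2.67, adjusted p = 0.00475) or Δ133p53α8 replicate 2 (1.89, adjusted p = 0.0477), with DESeq2 (0.0409), limma-voom (0.0369) and the set as a term (0.0332). Between isoforms it was -1.20 (edgeR adjusted p = 0.0801), which passed without control replicate 1 (adjusted p = 0.0409) or 3 (0.0241), with DESeq2 (0.0237) and with only these groups fitted (0.0214). S100A10, which forms a tetramer with ANXA2, had 257, 89.4, 65.1 and 82.1 CPM in control and 85.8 to 335 CPM with Δ133p53, and S100A11, the partner of ANXA1, had 144 ± 33.3 CPM in control. Neither passed in any comparison. The formyl peptide receptors FPR1 and FPR2 had 0 reads in all 24 libraries and FPR3 at most 1 in any library.

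Of 20 genes of plasma membrane repair, 19 were tested, of which 2 passed between Δ133p53α2 and Δ133p53α1 and 1 between Δ133p53α8 and Δ133p53α1 (0.820% and 0.743% of all tested genes). DYSF again and CHMP4C, a subunit of the ESCRT-III filaments that close wounds, were higher in Δ133p53α2 than in Δ133p53α1, and CHMP4C in Δ133p53α8 as well (log2 1.16 and 1.17, edgeR adjusted p = 0.00958 and 0.0099). CHMP4C held 3.01, 4.37, 4.52 and 2.50 CPM in Δ133p53α1, below the 4.60 to 6.10 CPM of control. Its calls were lost without Δ133p53α1 replicate 4 (adjusted p = 0.0501 and 0.0538), and that in Δ133p53α2 without Δ133p53α2 replicate 3 (0.0581). Both were lost with only the lines compared (0.328 and 0.123) and within the positive set (0.16 and 0.204). With DESeq2, CHMP4C passed as lower than control in Δ133p53α1 (-0.64, adjusted p = 0.0421) and as higher in Δ133p53β5 (0.68, adjusted p = 0.0259). With the set as a term it passed in Δ133p53β5 as well (0.76, edgeR adjusted p = 0.0229). Δ133p53β minus Δ133p53α passed for CHMP4C with DESeq2 (0.41, adjusted p = 0.0489) and with the set as a term (0.46, edgeR adjusted p = 0.0399). The median log2 difference of the list from control lay between -0.07 in Δ133p53α1 and 0.34 in Δ133p53α2.

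Of 8 genes of plasminogen activation, the system that ANXA2 and S100A10 serve at the surface, 6 were tested and PLG and SERPINB2 were not. The protease gene PLAU was lower in Δ133p53β than in Δ133p53α lines (258 against 559.9 CPM, log2 -1.10, SE 0.19, edgeR adjusted p = 0.000935), as was SERPINE2, an inhibitor of serine proteases (5.75 against 12.6 CPM, -1.15, SE 0.21, edgeR adjusted p = 0.00198). Thus 2 of the 6 passed the test as lower and 0 as higher, beside 4.72% of all tested genes past it. Within the positive set neither passed (-0.86, adjusted p = 0.202, and -0.64, adjusted p = 0.36). Against control, PLGRKT, a plasminogen receptor, was higher in Δ133p53β5 (0.83, edgeR adjusted p = 0.0347) and Δ133p53β10 (0.75, edgeR adjusted p = 0.0371), and SERPINE2 was lower in Δ133p53β10 (-1.14, edgeR adjusted p = 0.0201), which is 1 and 2 of the 6 genes beside 7.98% and 9.82% of all genes. The PLGRKT call in Δ133p53β5 was lost without any 1 of its replicates 2 and 3 or control replicates 2, 3 and 4 (adjusted p from 0.0671 to 0.177). Its call in Δ133p53β10 was lost without any 1 of its replicates 2, 3 and 4, control replicates 2, 3 and 4, Δ133p53α1 replicate 2 or Δ133p53β5 replicate 2 (adjusted p from 0.0512 to 0.111). With no filter, the replicate block and the positive set, PLGRKT had adjusted p of 0.0717, 0.0754 and 0.217 in Δ133p53β5 and of 0.0763, 0.0564 and 0.366 in Δ133p53β10, where only both groups fitted gave 0.136. The call of SERPINE2 was lost without Δ133p53β10 replicate 3 (adjusted p = 0.0531) or 4 (0.064), with the library of unsettled clone counted in Δ133p53β5 (0.0537), with only both groups fitted (0.0936) and within the positive set (-0.54, adjusted p = 0.427). PLGRKT also passed in Δ133p53α2 with the set as a term (0.59, edgeR adjusted p = 0.00878), and SERPINE2 there was 1.14 within the positive set. PLAU passed in Δ133p53α1 without Δ133p53α1 replicate 1 (0.80, edgeR adjusted p = 0.0485) or Δ133p53α8 replicate 2 (0.73, 0.0383). With the set as a term PLAU passed in Δ133p53β5 (-0.79, 0.0359). Without Δ133p53α8 replicate 2, Δ133p53α8 minus Δ133p53α1 passed for PLAU (-1.07, 0.0177). Other genes of the list, such as PLAUR (155 ± 21.3 CPM in control) and PLAT (18.8 ± 3.33 CPM), passed in no comparison.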

How the data were processed

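Per the paper's methods and the submitters' processing notes, strand-specific poly(A) libraries were read on DNBSEQ, aligned to hg38 with HISAT2 and counted by exon and gene with featureCounts. The strand setting is not given in the sources used here. The values the authors deposited are raw read counts, given for each gene in each library. The table holds 60564 rows, of which 1 without a gene name had 0 reads and was left out.

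The counts were fitted in R 4.3.3 with edgeR 4.0.16 (TMM scaling, filterByExpr, quasi-likelihood test, a single model with 7 groups and 17 residual degrees of freedom, Benjamini-Hochberg adjustment over the 18295 tested genes of each comparison). The filter used the 23 libraries of known line. Calls required an adjusted p below 0.05 together with an absolute log2 difference of 1.5 or more, the thresholds of the study's methods. Standard errors were obtained from the F statistic. The procedure was run on simulated counts drawn independently for each library. These held no library sets, so that run does not speak to the effect of the sets. No library repeated another of its line (lowest chi-square per degree of freedom 15.8 over 33 pairs of the same line). Libraries of different lines, and the library of unsettled clone, were not compared in this way.

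Members, gene lists and tests were chosen with earlier results of these data known. The named genes were all members, those of the fixed lists that passed a test or exemplify a high level, the 5 tested genes on each side of ANXA3, and the 5 genes most correlated with it. Transcript length (canonical transcript, known for 98.6% of tested genes) and positions are from the GENCODE annotation, and promoter windows from RefSeq. DESeq2 1.42.0, limma-voom 3.58.1, RLE size factors, other filters and thresholds, other placements of the library of unsettled clone, the replicate number as a block, fits of the compared groups only, the library set as a term, the positive set alone and omission of each library were the alternatives. Libraries were put in a positive or negative set by the sign of the rank correlation, over genes, between their deviations and transcript length. Reads carry no molecular identifiers, so limits from counts cover counting error only.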

Additional observations from a re-analysis of the deposited data

Results flagged for a closer look

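In 45 groups of 4 libraries, 2 held a library that stood apart by Dixon's criterion, a rate that chance gives in about 1 of 20 groups. The groups were the 9 members in control, Δ133p53α1, Δ133p53α2, Δ133p53α8 and Δ133p53β10. Δ133p53β5, with 3 libraries, was not checked. ANXA9 had 3.48 CPM in Δ133p53α8 replicate 2, with the next library at 2.17 CPM. ANXA11 had 323 CPM in Δ133p53α2 replicate 1, with the next library at 174.5 CPM. Both are libraries of the negative set in lines whose other libraries belong to the positive set, and the part of the set in these values was not tested.

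In 3 cases a member differed between lines or isoforms by a direct test. ANXA2 was 0.81 log2 units higher in Δ133p53β than in Δ133p53α lines. ANXA3 was 1.84 log2 units higher in Δ133p53α2 and 1.73 higher in Δ133p53α8 than in Δ133p53α1.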

How the results depend on the processing

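Of 3240 values of the members under an alternative, 3200 were kept, 21 lost a call and 17 gained one. Kept means the same side of the adjusted p, or for ANXA3 against control the same direction within 1 SD. The other 2 values, of ANXA3, moved by more than 1 SD (5.18 in Δ133p53β5 and 5.38 in Δ133p53β10 within the positive set). Direction was not compared for differences that did not pass, and some changed sign, such as ANXA6 in Δ133p53α2 against control (-0.09 to 0.41). No called difference reversed. Against control, the number of members past the adjusted p became 1 in Δ133p53α1 with no filter, with the replicate block, with only both groups fitted and in the positive set; 1 in Δ133p53β5 in the positive set; and 1 in Δ133p53β10 with only both groups fitted and in the positive set. It was 2 in Δ133p53β10 with the replicate block and with no filter. It became 3 in Δ133p53β5 with only both groups fitted and with the set as a term, and 4 in Δ133p53β10 with the set as a term. For Δ133p53β against Δ133p53α it became 2 with DESeq2, 2 with the set as a term and 0 in the positive set. For Δ133p53α2 against Δ133p53α1 it became 2 with the set term, and 0 by either rule with only both lines fitted and in the positive set. For Δ133p53α8 against Δ133p53α1 it became 2 with DESeq2 and with the set term, and 0 by either rule in the positive set. At a log2 threshold of 1, 2 members were called in each line against control but Δ133p53α1. At 0, the counts were 2 in Δ133p53α1, α2, α8 and Δ133p53β5, 3 in Δ133p53β10 and 1 for Δ133p53β against Δ133p53α. Over the omissions of 1 library, members past the adjusted p ranged from 1 to 3 in Δ133p53α1, from 2 to 3 in Δ133p53β10, from 1 to 2 for Δ133p53β against Δ133p53α and from 1 to 4 for Δ133p53α8 against Δ133p53α1, where called members ranged from 1 to 2. Under single omissions the other counts stayed within 1.5 times their value with all libraries. The cause was not tested. Same-numbered libraries of different lines had correlations from -0.88 to 0.889 (23 of 55 pairs above 0.1). Pairs of different number were not set beside them, so these values cannot tell whether the numbers pair the libraries. Moving the library of unsettled clone into either line, or leaving it out, changed no annexin call. Counts of called genes over the whole table moved by more than 1.5 times in some settings. With genes of at least 1 CPM in the mean, they fell against control from 474 to 269 in Δ133p53α1, 513 to 291 in α2, 457 to 279 in α8, 769 to 487 in Δ133p53β5 and 859 to 512 in β10, from 256 to 122 between isoforms, from 103 to 61 and 94 to 55 for α2 and α8 against α1, and from 28 to 17 for α8 against α2. In the positive set they were 126 in α1, 689 in α8, 264 in β5 and 311 in β10 against control, 92 between isoforms, and 25 and 12 for α2 and α8 against α1. With only the groups compared they were 295 in α2 and 429 in β10, and 22, 38 and 9 for α2 against α1, α8 against α1 and α8 against α2. DESeq2 gave 190, 223 and 48 for these same contrasts, and α8 against α2 had 14 with the replicate block and 47 with the set as a term.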
